A study of Mus musculus with 12 samples.

Results

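The ATP-binding cassette (ABC) superfamily was followed in the livers of germ-free male mice. Its members were taken as the genes whose symbol begins with Abc, continues with a subfamily letter from a to g and a number, and may end in a further letter. This gave 50 of the 38087 genes in the count table, namely 16 of subfamily A, 10 of B, 10 of C, 4 of D, 1 of E, 3 of F and 6 of G. All mice were C57BL/6j males aged 13 to 16 weeks without a gut microbiota. The ghrelin group holds 6 libraries from mice given rat ghrelin under the skin every day for 5 days at 10 µg per mouse. The other group holds 6 libraries from mice given phosphate-buffered saline (PBS) in its place. The injections and the collection of liver share the label zeitgeber time 2, or 2 h into the light phase. No uninjected and no conventionally raised mice belong to these groups, so every value describes injected germ-free liver at a single time of day.

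ABC proteins bind and hydrolyse ATP through paired nucleotide-binding domains, and most use this energy to move a substrate across a membrane. In the liver they export bile acids, phospholipid, cholesterol and conjugated compounds into bile, return conjugates to blood and load high-density lipoprotein. They also move fatty acids, heme precursors and vitamins across the membranes of organelles. Subfamilies E and F have no membrane domain and act in translation. Ghrelin, a peptide made by the stomach, raises food intake and growth hormone, and its repeated injection is compared here with the vehicle.

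Total counts over genes were 15775059 to 22302533 per library, and the 50 ABC genes took 0.455% to 0.504% of them. Levels are given as CPM, counts scaled to library size with TMM factors. Hepatocyte markers (Alb, Apoa1, Ttr, Trf, Fgb, Hnf4a) summed to 86392 to 118651 CPM in PBS and 83877 to 103571 CPM in ghrelin libraries, and cholangiocyte markers to 20.5 to 32.9 and 24.9 to 32.3 CPM. The first sum was mostly Alb, with means of 65445 CPM in PBS and 57655 in ghrelin. The second was mostly Spp1, with means of 22.1 and 23.1 CPM. Pancreatic acinar markers summed to at most 0.991 CPM in any library, with Prss2, Pnlip and Amy2b at 0. Neutrophil markers summed to 3.40 to 8.32 CPM in PBS and 0.792 to 4.02 CPM in ghrelin, overlapping ranges in which 2 of 6 markers were tested, both at an unadjusted p under 0.05 and neither called, and the part of such cells in any ABC value was not tested. In whole liver, fewer cells of a type and less RNA per cell cannot be told apart.

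Of the 50 members, 39 passed the filter on low counts and were tested. The other 11 were at or near 0 in every library. They comprised Abca4 of the retina, Abca12 of the epidermis, Abca13, the rodent genes Abca14, Abca15, Abca16 and Abca17, and Abcb5. Abcc8 (the sulfonylurea receptor of the pancreatic beta cell), Abcc12 and Abcg4 made up the rest. Abca14 had the most, with 75 counts over 12 libraries, followed by Abca4 with 58 and Abcc12 with 26, and Abcc8 had 1 count. Abcb5 had none, which allows up to 0.0127 CPM when 3 counts over all libraries are taken as the limit. That limit covers counting error only.

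Per kilobase of annotated exon, the family was led by the bile salt export pump Abcb11, at 187 ± 19.5 CPM per kb (SD, n = 12), a level above that of 97.8% of the tested genes. Its lowest library, at 161 CPM per kb, lay above the highest library of every other member. Next came Abca6 of subfamily A at 93.4 ± 8.31 and the peroxisomal transporter Abcd3 at 83.1 ± 8.75 CPM per kb, whose libraries overlapped. The conjugate pump Abcc2 followed at 56.4 ± 6.76 CPM per kb, and its highest library (66.1) reached just past the lowest of Abcd3 (65.9). Abca8a (40.5 ± 4.47), Abcg5 (36.0 ± 4.24), Abca1 (35.7 ± 4.06) and Abcg8 (33.1 ± 4.45 CPM per kb) were not separate in order, since their ranges over libraries all overlapped. The same held for Abcc6, Abcc3 and Abcb4, at 24.9, 24.7 and 24.4 CPM per kb. The 5 highest members carried 57.4% of the summed level per length and the 10 highest carried 76.7%. With the longest transcript in place of all exons as the length, Abcd3 had the second highest level, 157 CPM per kb. Abcb4 then had rank 5, at 56.0 CPM per kb. Abcb11 still had the highest mean, but its libraries overlapped those of Abcd3 on that length. The order below Abcb11 and its separation from Abcd3 thus depend on how length is taken.

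**Figure D1:**
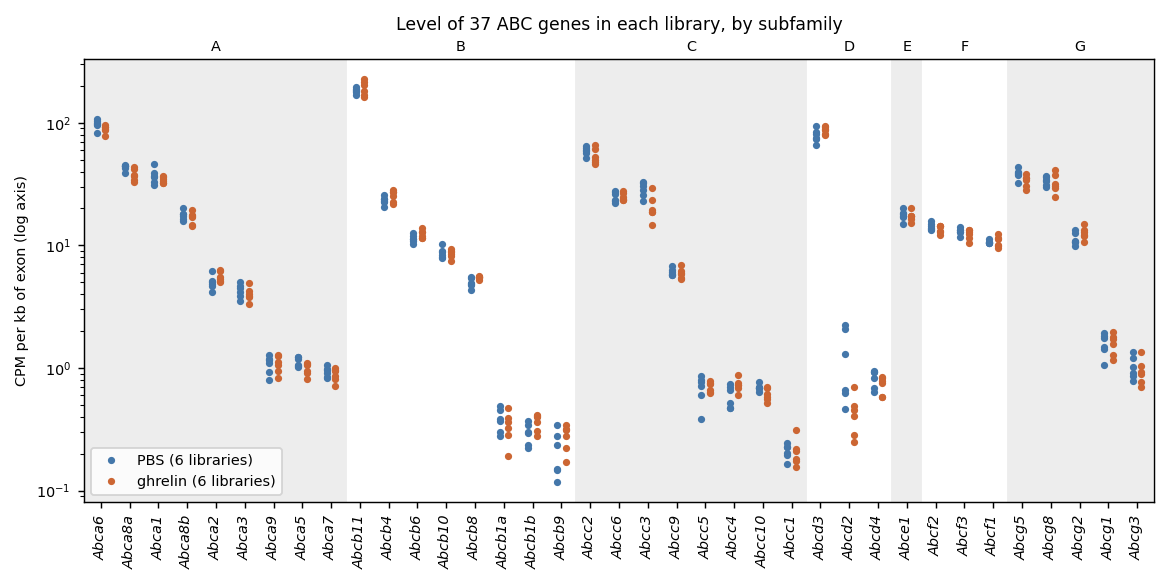
Level of 37 tested ABC genes in CPM per kb of exon (log axis), by subfamily A to G, with 1 point per library for PBS (blue) and ghrelin (orange). Levels run from 187 CPM per kb for Abcb11 down to 0.208 for Abcc1, and the ranges of the groups overlap in every gene shown. The log axis makes differences within a gene look small.

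Low but tested members sat at the other end. The multidrug transporters Abcb1a and Abcb1b, both P-glycoproteins, had 0.357 and 0.327 CPM per kb, the lysosomal peptide transporter Abcb9 had 0.243 and the leukotriene and glutathione conjugate exporter Abcc1 had 0.208 CPM per kb. Abcb1a and Abcb1b are close paralogs, and the treatment of reads that map to both is not known.

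No member of the family was called different between ghrelin and PBS. The quasi-likelihood test of edgeR called 0 of the 39 members at an adjusted p under 0.05, against 15 of 14170 genes (0.106%) in all, 6 of them higher (0.0423%) and 9 lower (0.0635%). At an unadjusted p under 0.05 it had 7 members, 1 higher and 6 lower with ghrelin. These are 17.9% of the members against a background of 13.4% of all tested genes, by direction 2.56% against 6.44% for higher and 15.4% against 6.94% for lower. DESeq2 had 5 members at an unadjusted p under 0.05, all lower, and called 1, Abcd2. Leaving out PBS 3, PBS 4 or ghrelin 6 reduced the 7 to 4, and leaving out PBS 5 raised them to 11. The lower ones numbered 3 when PBS 1, PBS 4 or ghrelin 6 was left out. The calls over all genes ran from 0 (ghrelin 1 or ghrelin 3 left out) to 32 (ghrelin 4 left out); leaving out PBS 3 gave 5, ghrelin 6 gave 6, ghrelin 2 gave 9, PBS 6 gave 23 and PBS 5 gave 24. In no member did the groups separate without overlap, against 0.826% of the genes tested (0.367% higher, 0.459% lower).

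The fitted differences were small. The median log2 fold change (ghrelin over PBS) of the 39 was -0.03, against 0.00 for all genes, and 24 members (61.5%) were below 0, against 50% of all genes. For 34 members the absolute log2 fold change was under 0.25. By subfamily the median was -0.09 in A (7 of 9 below 0), 0.13 in B (3 of 9 below 0), -0.02 in C (5 of 8) and -0.05 in G (3 of 5). Subfamily D is given by member. The E member was at -0.03, and the 3 F members lay from -0.08 to 0.01. Summed over all 50 genes the level was 4649 to 5052 CPM in PBS and 4499 to 4907 CPM in ghrelin libraries.

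**Figure D2:**
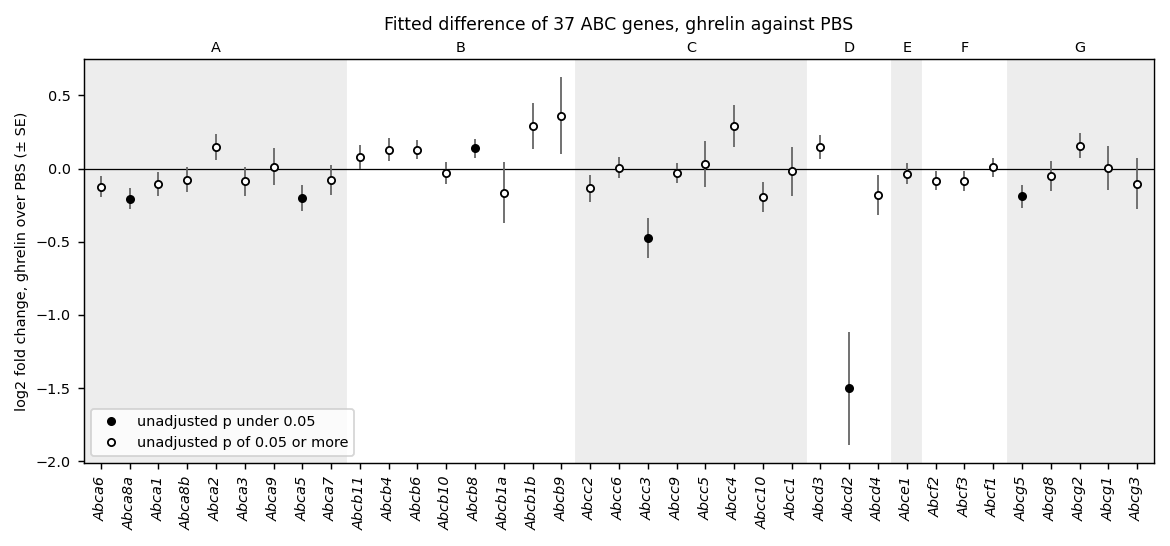
Log2 fold change of 37 tested ABC genes, ghrelin over PBS, with its SE (bars); filled points have an unadjusted p under 0.05. Abcd2 at -1.50 and Abcc3 at -0.47 lie apart from the other members, which stay within 0.362 of 0, and none passed after adjustment.

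In subfamily A, Abca1, which moves cholesterol and phospholipid onto apolipoprotein A-I to form high-density lipoprotein, lies on chromosome 4 (53030787 to 53159895, minus strand). It had 385, 321, 340, 479, 400 and 376 CPM in PBS 1 to 6 and 376, 347, 363, 334, 383 and 336 CPM in ghrelin 1 to 6. All ghrelin values lay inside the PBS range, whose highest value was that of PBS 4, with a fitted log2 difference of -0.11 (SE 0.08, adjusted p = 0.624).

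Abca5, Abca6, Abca8a, Abca8b and Abca9 are neighbours on the minus strand of chromosome 11, between 109932190 and 110337716, with gaps of 4770 to 29788 bases. Their levels differed widely, from 1.06 CPM per kb in Abca5 and 1.08 in Abca9 to 93.4 in Abca6. Abca8a had 278, 279, 278, 270, 243 and 286 CPM in PBS 1 to 6, and 273, 262, 236, 214, 204 and 229 CPM in ghrelin 1 to 6. The 5 PBS libraries other than PBS 5 lay close together, and 4 ghrelin libraries lay below all PBS libraries. Its log2 fold change was -0.21 (SE 0.07, unadjusted p = 0.0147, adjusted p = 0.271). Abca5, of lysosomes and endosomes, spanned 11.7 to 14.1 CPM in PBS (median 12.9) and 9.35 to 12.6 CPM in ghrelin (median 11.5). The groups overlapped, with 3 ghrelin libraries below all of PBS, and the fitted log2 difference was -0.20 (SE 0.09, unadjusted p = 0.0357, adjusted p = 0.339). Abca6 had -0.12 (SE 0.07), Abca8b -0.08 (SE 0.08) and Abca9 0.01 (SE 0.13).

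Abca8a and Abca8b are close paralogs, so the split of reads between them is uncertain. The bases before their annotated starts, from RefSeq on GRCm38.p6, are shown because the 2 genes were set as a pair for comparison between libraries; capitals mark matches, on either strand, of the GATA core GATAA, the CCAAT box, the TATA box written as TATAAA, the E-box CACGTG, the STAT element TTCNNNGAA or the inverted repeat IR1 bound by FXR. Abca8a lies at chr11:110095938-110096187 and Abca8b at chr11:109995846-109996095, both on the minus strand and 250 bases long.
Abca8a: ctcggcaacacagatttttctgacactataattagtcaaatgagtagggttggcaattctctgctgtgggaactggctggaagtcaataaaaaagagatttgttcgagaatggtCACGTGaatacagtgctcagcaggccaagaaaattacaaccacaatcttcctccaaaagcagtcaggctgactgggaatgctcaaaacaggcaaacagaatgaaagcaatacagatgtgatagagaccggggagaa
Abca8b: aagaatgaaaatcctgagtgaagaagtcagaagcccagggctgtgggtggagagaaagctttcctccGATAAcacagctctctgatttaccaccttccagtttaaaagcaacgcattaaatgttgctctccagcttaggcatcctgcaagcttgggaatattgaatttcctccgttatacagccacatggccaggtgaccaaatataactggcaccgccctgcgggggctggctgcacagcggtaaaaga
Abca8a holds CACGTG, as do 6.02% of 32851 promoter entries, and Abca8b holds GATAA, as do 22.6%. Over the 12 libraries the log2 CPM of the 2 genes had a Pearson r of 0.546 (permutation p = 0.0666, adjusted 0.0888 over 4 pairs) and a Spearman rho of 0.497 (permutation p = 0.104, adjusted 0.209). Neither passed, and r was -0.01 within PBS and 0.699 within ghrelin. It was 0.424 without ghrelin 4 and ghrelin 5, which lay farthest from the median of Abca8a.

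The remaining tested A members were Abca2 of endosomes and lysosomes (41.8 ± 5.60 CPM in PBS, 46.4 ± 4.55 in ghrelin), Abca3, the phospholipid transporter of lung surfactant bodies (40.3 ± 5.21 and 37.9 ± 5.05), and Abca7, a phospholipid transporter (6.28 ± 0.566 and 5.96 ± 0.726). All had an unadjusted p above 0.05. Exons of genes on the opposite strand cover 9.75% of the exon bases of Abca3, 10.3% of Abcb10 and 10.1% of Abcb1a in the reference annotation, the largest such shares among the members given here, and reads of the 2 strands cannot be told apart unless the counting used strand.

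In subfamily B, the 2 transporters that secrete bile salts and their phospholipid partner into the bile canaliculus were abundant and not called. Abcb11 lies on chromosome 2 (69238282 to 69342616, minus strand). It had 924, 963, 943, 863, 998 and 939 CPM in PBS 1 to 6 and 1172, 931, 866, 1100, 830 and 1044 CPM in ghrelin 1 to 6. The ghrelin group was the more spread, with 3 libraries above and 1 below all PBS libraries. The coefficient of variation was 4.77% in PBS and 13.7% in ghrelin. The log2 fold change was 0.08 (SE 0.08, adjusted p = 0.724).

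Abcb4, which flips phosphatidylcholine into bile, lies on chromosome 5 (8893717 to 8959231, plus strand) next to Abcb1a and Abcb1b. It had 223, 212, 225, 192, 214 and 243 CPM in PBS 1 to 6 and 239, 265, 256, 204, 257 and 212 CPM in ghrelin 1 to 6. In ghrelin 2, 3 and 5 it exceeded every PBS library, while the other ghrelin libraries lay among them. Its fitted log2 difference was 0.13 (SE 0.08, adjusted p = 0.489).

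Abcb4 and Abcb11 had a Pearson r of -0.27 over 12 libraries (permutation p = 0.393, adjusted 0.393) and a rho of -0.35 (permutation p = 0.267, adjusted 0.267), so no relation was detected. The r was 0.452 within PBS and -0.69 within ghrelin, and -0.57 without ghrelin 2 and PBS 4, the libraries farthest from the median of Abcb4. The difference between the groups in r was not tested.

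Mitochondrial and porphyrin transporters of this subfamily were not called. Abcb10, needed for heme synthesis, had 37.7 ± 3.68 CPM in PBS and 36.9 ± 2.81 in ghrelin. Abcb8, a transporter of the inner mitochondrial membrane, had 20.3 to 26.4 CPM in PBS (median 23.2) and 24.6 to 26.5 CPM in ghrelin (median 26.1). It was the single member that was higher at an unadjusted p under 0.05, with a log2 fold change of 0.14 (SE 0.07, unadjusted p = 0.0496, adjusted p = 0.371). That p was 0.05 or more with RLE scaling, DESeq2, robust estimation and no count filter, as 0 members were then higher at that threshold. Abcb6, a porphyrin transporter, spanned 54.3 to 66.5 CPM in PBS (median 59.4) and 60.5 to 74.0 CPM in ghrelin (median 65.7), with 3 ghrelin libraries above all of PBS. Its fitted log2 difference was 0.13 (SE 0.06, adjusted p = 0.408). In the reference annotation 55.2% of its exon bases are shared with a gene model on the same strand, so its count is uncertain. Abcb1a spanned 1.52 to 2.67 CPM in PBS (median 2.07) and 1.04 to 2.59 CPM in ghrelin (median 1.88), with overlapping groups (fitted log2 difference -0.17, SE 0.21, adjusted p = 0.773). Abcb1b had 2.34 ± 0.457 and 2.88 ± 0.449 (0.29, SE 0.16), and Abcb9 1.19 ± 0.493 and 1.53 ± 0.368 CPM (0.36, SE 0.26).

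In subfamily C, Abcc3 had the second smallest p of the family. It exports glucuronide conjugates and bile acids across the basolateral membrane to blood, and lies on chromosome 11 (94343295 to 94392997, minus strand). It had 187, 131, 160, 183, 148 and 174 CPM in PBS 1 to 6 and 110, 168, 106, 107, 133 and 83.3 CPM in ghrelin 1 to 6. Ghrelin 1, 3, 4 and 6 lay below every PBS library, while ghrelin 2 and ghrelin 5 lay inside the PBS range. The means were 164 ± 21.6 and 118 ± 29.2 CPM (SD, n = 6), with a log2 fold change of -0.47 (SE 0.14, unadjusted p = 0.0037, adjusted p = 0.192). Over 19 alternative fits the adjusted p was 0.0514 to 0.343 and no fit called it, with log2 fold changes from -0.60 (without ghrelin 2) to -0.39 (without ghrelin 6).

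Abcc2, the canalicular counterpart that secretes conjugates into bile, lies on chromosome 19 (43782192 to 43840740, plus strand). It had 548, 484, 505, 511, 443 and 530 CPM in PBS 1 to 6 and 405, 520, 392, 422, 564 and 448 CPM in ghrelin 1 to 6. Ghrelin 1, 3 and 4 lay below all PBS libraries and ghrelin 5 above them. The fitted log2 difference was -0.14 (SE 0.09, adjusted p = 0.542).

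Abcc2 and Abcc3 varied together over the libraries. Their log2 CPM had a Pearson r of 0.727 over 12 libraries (permutation p = 0.00858, adjusted 0.0343 over 4 pairs) and a rho of 0.727 (permutation p = 0.00963, adjusted 0.0385). The r was 0.731 within PBS and 0.640 within ghrelin. It was 0.660 on deviations from the group means (adjusted permutation p = 0.038), and 0.659 without ghrelin 1 and ghrelin 3, the libraries farthest from the median of Abcc2. The p on deviations is likely too small, since the shuffles did not allow for the removed group means, so it cannot show that the pair passes on that measure. The points share the scaling of their library.

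**Figure D3:**
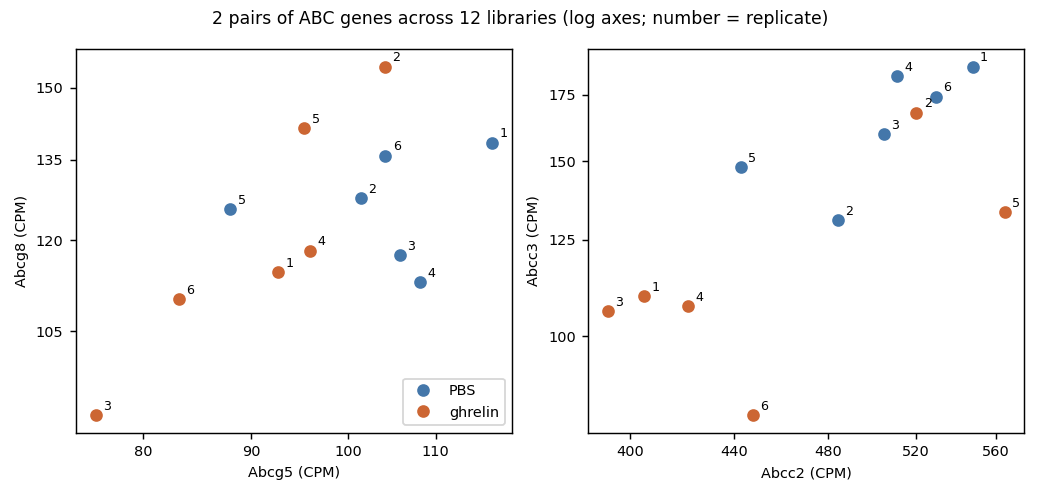
CPM of Abcg8 against Abcg5 (left) and of Abcc3 against Abcc2 (right) in 12 libraries, on log axes, with the replicate number beside each point. Over all libraries r on the log2 scale is 0.650 on the left, where ghrelin 3 is lowest in both genes, and 0.727 on the right.

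Abcc6, whose loss causes ectopic calcification, was at a level per length close to that of Abcc3. It had 127 to 159 CPM in PBS (median 142) and 134 to 158 CPM in ghrelin (median 139), with the ghrelin values inside the PBS range and a fitted log2 difference of 0.0050 (SE 0.07, adjusted p = 0.988). Abcc4, a basolateral exporter of cyclic nucleotides and bile acids, was low. It had 4.19, 4.44, 3.33, 4.77, 3.02 and 3.01 CPM in PBS 1 to 6 and 4.35, 4.65, 3.81, 4.61, 5.57 and 4.80 CPM in ghrelin 1 to 6. Ghrelin 5 and ghrelin 6 exceeded every PBS library and PBS 3, 5 and 6 lay below every ghrelin library. The fitted log2 difference was 0.29 (SE 0.14, adjusted p = 0.391). Abcc10 spanned 4.40 to 5.30 CPM in PBS (median 4.71) and 3.53 to 4.80 CPM in ghrelin (median 4.08), with 4 ghrelin libraries below all of PBS (fitted log2 difference -0.19, SE 0.10, adjusted p = 0.44).

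Abcc9, the sulfonylurea receptor that forms potassium channels with Kcnj8, had 50.8 ± 3.22 CPM in PBS and 49.7 ± 4.97 in ghrelin (log2 fold change -0.03, SE 0.07). Its channel partner Kcnj8 had 3.18 ± 1.28 and 3.22 ± 0.444 CPM. The cyclic nucleotide exporter Abcc5 had 7.34 ± 1.87 and 7.48 ± 0.715 CPM, and Abcc1 3.16 ± 0.430 and 3.14 ± 0.843 CPM.

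In subfamily D, the peroxisomal fatty acid transporters, Abcd2 showed the largest fitted difference of the family. It carries very long-chain and polyunsaturated acyl-CoA and lies on chromosome 15 (91145871 to 91191799, minus strand). It had 13.4, 3.90, 7.67, 12.3, 2.76 and 3.74 CPM in PBS 1 to 6 and 1.49, 4.14, 1.68, 2.68, 2.41 and 2.93 CPM in ghrelin 1 to 6. PBS 1, PBS 3 and PBS 4 were above all ghrelin libraries, while the other 3 PBS libraries were no higher than ghrelin 2. The means were 7.28 ± 4.61 and 2.56 ± 0.959 CPM (SD, n = 6), with a log2 fold change of -1.50 (SE 0.39, unadjusted p = 0.0014, adjusted p = 0.147). DESeq2 gave an adjusted p of 0.0394 and edgeR without a count filter 0.0408. Over 19 alternative fits, these 2 included, it was 0.0394 to 0.291, and log2 fold changes lay from -1.68 (without ghrelin 2) to -1.23 (without PBS 1).

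Abcd3, which carries branched-chain acids and bile acid precursors, lies on chromosome 3 (121758774 to 121815302, minus strand). It had 435 to 619 CPM in PBS (median 511) and 525 to 615 CPM in ghrelin (median 582). PBS 2, 3 and 4 lay below all ghrelin libraries, and PBS 6 above them. The log2 fold change was 0.15 (SE 0.08, adjusted p = 0.451). Abcd4, the lysosomal transporter of cobalamin, had 6.62 ± 1.07 and 5.83 ± 0.958 CPM (log2 fold change -0.18, SE 0.13).

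**Figure D4:**
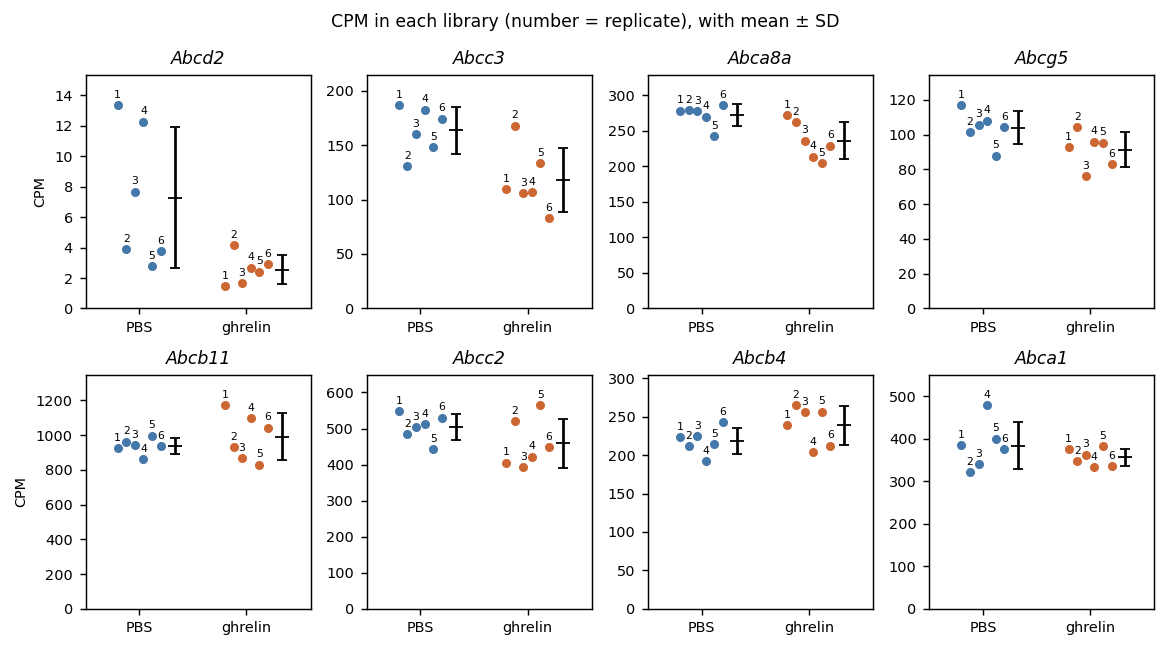
CPM of 8 ABC genes in each library (points, numbered by replicate) with the group mean ± SD (black), n = 6 per group. PBS 1, 3 and 4 set the PBS mean of Abcd2, and in all 8 genes the groups overlap.

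Subfamilies E and F, which serve the ribosome, were not called. Abce1, which splits ribosomes after termination, had 106 ± 9.79 CPM in PBS and 104 ± 9.56 in ghrelin (log2 fold change -0.03, SE 0.07). Abcf1, a translation initiation factor, had 47.1 ± 1.42 and 47.4 ± 4.77 CPM. Abcf2 had 36.9 ± 2.43 and 34.9 ± 2.51 CPM, and Abcf3 ranged over 41.3 to 50.5 and 37.2 to 47.4 CPM. No E or F member had an unadjusted p under 0.05.

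In subfamily G, Abcg5 and Abcg8 encode the subunits of 1 heterodimer that secretes sterols into bile. Abcg5 lies on the minus strand of chromosome 17 (84658234 to 84683011) and Abcg8 on the plus strand (84676302 to 84700333). Their main starts, 84683011 and 84683121 in RefSeq on GRCm38.p6, point away from each other. The 109 bases between them are shown on the plus strand because both transcripts start from this stretch (chr17:84683012-84683120), with capitals for the same motifs.
Abcg5 to Abcg8: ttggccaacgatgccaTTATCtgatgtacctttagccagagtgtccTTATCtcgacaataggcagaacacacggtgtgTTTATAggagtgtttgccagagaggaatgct
It holds GATAA at bases 17 to 21 and 47 to 51 and TATAAA at 79 to 84, all on the minus strand. Of 45 promoter entries of 38 members, 10 (22.2%) hold GATAA and 5 (11.1%) TATAAA in the 250 bases before the start, against 22.6% and 12.4% of all 32851 entries.

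Abcg5 had 117, 101, 106, 108, 88.0 and 104 CPM in PBS 1 to 6 and 92.7, 104, 76.0, 95.9, 95.4 and 83.2 CPM in ghrelin 1 to 6. Ghrelin 3 and ghrelin 6 lay below every PBS library, PBS 1, 3, 4 and 6 lay above every ghrelin library (PBS 6 by a margin lost in rounding), and the groups overlapped through PBS 2 and PBS 5. The log2 fold change was -0.19 (SE 0.08, unadjusted p = 0.0319, adjusted p = 0.33). Abcg8 had 138, 128, 117, 113, 126 and 136 CPM in PBS 1 to 6 and 114, 155, 92.9, 118, 141 and 110 CPM in ghrelin 1 to 6. The ghrelin group spanned the whole PBS range, and the log2 fold change was -0.05 (SE 0.10, adjusted p = 0.876), or 0.02 without ghrelin 3.

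The 2 genes had a Pearson r of 0.650 over 12 libraries (permutation p = 0.0218, adjusted 0.0436 over 4 pairs), while rho was 0.434 (permutation p = 0.161, adjusted 0.214). The r was 0.911 within ghrelin and 0.156 within PBS. Without ghrelin 3 and PBS 1, the libraries farthest from the median of Abcg5, r over all groups was 0.314. Leaving out the farthest libraries also narrows the range of Abcg5, so the fall cannot show that the relation rests on them. On deviations from the group means r was 0.682 (permutation p = 0.0139, adjusted 0.038 over 4 pairs) and rho 0.573 (adjusted permutation p = 0.094), and r was 0.649 without ghrelin 3 and PBS 5, the farthest on that measure. The pairs Abca8a with Abca8b (r 0.504, adjusted permutation p = 0.127) and Abcb4 with Abcb11 (r -0.44, adjusted permutation p = 0.151) did not pass on deviations. For Abcg5 with Abcg8 the p on deviations is likely too small, since the shuffles did not allow for the removed group means. Whether that pair passes on deviations thus stays undecided. In the reference annotation 82 exon bases of the 2 genes overlap on opposite strands, which is 3.02% of Abcg5 and 2.19% of Abcg8.

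Abcg2, an exporter of urate, sulfated compounds and drugs, lies on chromosome 6 (58584523 to 58695676, plus strand). It had 81.2 to 108 CPM in PBS (median 87.5) and 87.1 to 121 CPM in ghrelin (median 101). PBS 2, PBS 3 and PBS 4 lay below all ghrelin libraries and the other 3 inside their range (fitted log2 difference 0.16, SE 0.09, adjusted p = 0.46). Abcg1, which moves cholesterol in macrophages and other cells, had 11.5 ± 2.33 and 11.5 ± 2.27 CPM, and the rodent gene Abcg3 3.62 ± 0.756 and 3.35 ± 0.823 CPM.

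Between libraries of a group, the typical member varied about as much as the typical tested gene. The biological coefficient of variation had a median of 0.115 over the 39 members and 0.123 over all tested genes, and 24 members lay below the latter. The tested members also had a higher median level, 8.66 CPM per kb against 3.29 for tested genes with annotation. Their spread was not compared with that of genes of a like level. Abcd2, at 0.432, varied more than 98.9% of all tested genes. Abcb9 (0.259) and Abcb1a (0.206) followed, both low in counts. Among members above 100 CPM on average, Abcc3 (0.177) and Abcg8 (0.138) had the highest values. The lowest was that of Abcb8, at 0.0845.

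**Figure D5:**
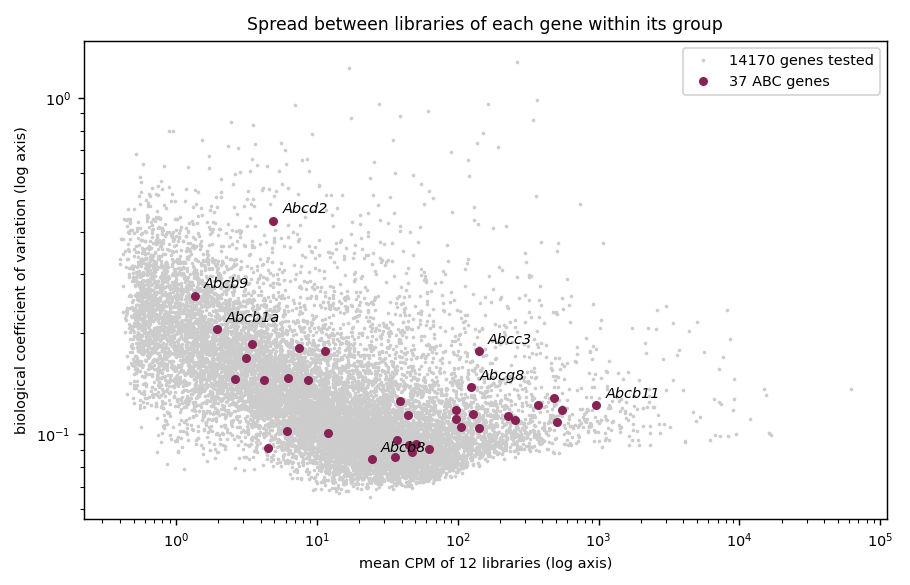
Biological coefficient of variation against mean CPM of 12 libraries (both log axes) for all 14170 tested genes (grey) and 37 ABC genes (purple). Abcd2, at 0.432, is the highest ABC gene shown, and Abcb8, at 0.0845, the lowest.

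ABC genes under other symbols were not called either. The antigen peptide transporter subunits Tap1 and Tap2 had 18.2 ± 6.70 and 13.5 ± 1.65 CPM in PBS and 19.2 ± 3.33 and 13.9 ± 1.28 CPM in ghrelin, with log2 fold changes of 0.07 (SE 0.19) and 0.04 (SE 0.09). The chloride channel gene Cftr lay below the filter.

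Genes that work with or control the transporters were set beside them. Among 17 tested bile transport partners, 1 fell, the organic anion transporter Slco1a4 (log2 fold change -1.03, SE 0.17, adjusted p = 0.0292). This call, like those of Cyp2c37 and Osgin1 below, was lost without ghrelin 1 or without ghrelin 3, when 0 genes were called. At an unadjusted p under 0.05, 3 were lower (6.94% of all genes) and 0 higher (6.44% of all genes), among them the bile acid uptake transporter Slc10a1 (-0.20, SE 0.08) and the phospholipid flippase Atp8b1 (-0.14, SE 0.06). Among 17 nuclear receptors and other regulators none was called, and 2 were higher and 2 lower at that threshold. Nr1h4 (FXR, the bile acid receptor that drives Abcb11) had 98.8 ± 8.24 CPM in PBS and 100 ± 11.7 in ghrelin, and Nr1h3 (LXR alpha, which drives Abca1, Abcg5 and Abcg8) 80.4 ± 3.33 and 87.4 ± 8.65 CPM. The fitted log2 difference of Ppara was 0.34 (SE 0.13) and that of Ahr -0.43 (SE 0.14).

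Targets of these receptors outside the family were counted by list. All related lists were chosen with earlier results of these data known, so their shares are no independent test against all genes. All 12 tested targets of PXR and CAR, receptors of foreign compounds, were below 0 (median log2 fold change -0.29, against 0.00 for all genes). Cyp2c37 fell (-0.55, SE 0.09, adjusted p = 0.0379), and 5 of the 12 were lower at an unadjusted p under 0.05, against 6.94% of all genes. Of 12 LXR targets 7 were below 0 (median -0.16) and none was called. At an unadjusted p under 0.05, 3 of the 12 were lower, against 6.94% of all genes, and 1 was higher, against 6.44%. The lower ones were Fasn at -0.57 (SE 0.19), Srebf1 at -0.35 (SE 0.13) and Smpdl3a at -0.19 (SE 0.07). The higher one was Lpcat3 at 0.22 (SE 0.09). Of 10 FXR targets 3 were below 0 (median 0.08), and Osgin1 rose (1.16, SE 0.20, adjusted p = 0.0379). Osgin1 was the only gene of this list at an unadjusted p under 0.05, so the call is that of a single gene and not of the list. The NRF2 list did not hold it. Of 12 NRF2 targets 8 were below 0 (median -0.06), and of 12 PPARA targets 6 (median 0.05). At an unadjusted p under 0.05, 1 NRF2 target was lower and 0 higher, and 1 PPARA target was lower and 1 higher, with none called.

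Of 15 peroxisomal partners of the D subfamily, 14 were above 0 (50% of all genes were below 0), with a median log2 fold change of 0.17. Of these, 4 were higher at an unadjusted p under 0.05, against 6.44% of all genes, with none called. Amacr, a racemase of branched-chain acyl-CoA, had 110 ± 6.12 CPM in PBS and 136 ± 11.6 in ghrelin (0.31, SE 0.06, adjusted p = 0.0956), and Slc27a2, a very long-chain acyl-CoA synthetase, had 0.28 (SE 0.08, adjusted p = 0.168). Abcd3 was on the same side, and Abcd2 and Abcd4 on the other. The partners of Abca1 in high-density lipoprotein (6 of 10 above 0, median 0.05), mitochondrial heme and iron-sulphur genes (7 of 14, median -0.0038), antigen peptide loading (8 of 13, median 0.02) and ribosome recycling genes (2 of 9, median -0.09) had no called member.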

How the data were processed

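The authors deposited unnormalised whole-number exon counts per gene for 12 liver libraries. STAR 2.4.0i and the build mm10 are named in the submitters' processing notes. The libraries are stranded, ribosome-depleted total RNA per the labels' protocols; for the counting tool, annotation, strand setting and shared reads, the answer is not given in the sources used here. Groups and replicate numbers come from the titles. No label says that each library is a separate animal, so the p-values may reflect technical spread alone. Chi-square over degrees of freedom between libraries of a group was 11.7 to 48.6, and no library was a copy of another.

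Genes were filtered with filterByExpr (minimum count 10, minimum total 15), which left 14170 of 38087, scaled by TMM and tested with the quasi-likelihood F test of edgeR 4.0.16 in R 4.3.3, two-sided, ghrelin against PBS, with Benjamini-Hochberg adjustment over all tested genes. The SE is the absolute log2 fold change over the square root of F. Log2 CPM used a prior count of 2. Alternatives were RLE and upper-quartile scaling, DESeq2 1.42.0, robust estimation, no filter, a minimum count of 50, the replicate number as a block, and leaving out each library. Correlations of 4 preset pairs used 100000 permutations, two-sided. Deviations were shuffled over both groups at once with no allowance for the removed group means, so their p-values are likely too small. Positions and lengths come from GENCODE M21 (GRCm38), which covered 98.3% of tested genes; promoters are RefSeq's on GRCm38.p6, found for 38 of 50 members, and were searched over the 250 bases before the start. In counts simulated for this comparison with 14170 genes, 60% of the 50 genes given a true log2 difference of 0.5 were called. Further genes were changed in the same simulation, 49 or 50 each at 1, 1.5 and 2. With so many changed genes the adjusted threshold is easier to pass than in the data, where 15 genes were called. The 60% may therefore overstate the share that would be called in the data.

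Members, lists and named genes were chosen with earlier results of these data known. Values by library or as range and median are given for 13 preset members and the 10 with the smallest p, and other members mostly by mean ± SD; of each related list, genes come from the 4 with the smallest p, except Nr1h4 and Nr1h3, named after their values were seen. Values of 2 tested members are not reported here; counts over the family include them.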

Additional observations from a re-analysis of the deposited data

Results flagged for a closer look

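In 2 of 78 groups of 6 libraries (39 tested members, PBS and ghrelin apart), 1 library stood off from the rest by a gap that exceeded the 95% critical value of Dixon's test on the log2 CPM scale. Chance alone gives about 1 in 20 such groups. Abca8a was lowest in PBS 5, at 243 CPM, with the other PBS libraries at 270 to 286 CPM. Without PBS 5 its log2 fold change was -0.23 (adjusted p = 0.176). Abcf1 was highest in PBS 5, at 49.9 CPM, with the others at 46.0 to 47.2 CPM.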

How the results depend on the processing

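The 15 calls over all genes numbered 14 or 15 under RLE scaling, upper-quartile scaling and a minimum count of 50, while DESeq2 called 202 genes, robust estimation 9, no count filter 63, and the replicate block 58, and leaving out single libraries gave 0 to 32. Among ABC members, 1 (Abcd2) was called by DESeq2 and 1 (Abcd2) without a count filter, and 0 in the other 17 alternatives, the replicate block included. Members at an unadjusted p under 0.05 numbered 4 to 11 when single libraries were left out. The log2 fold change of Abcc6, near 0, reversed to -0.0013 without a count filter and lay from -0.0258 to 0.0417 without single libraries; that of Abcg8 lay from -0.128 to 0.0200. The other 17 members named by rule kept their sign in every fit that gave them a value. Samples with the same replicate number correlated by -0.08 to 0.27 in their deviations from the group means, and only ghrelin 4 was the best match of its PBS number, so the numbers were not used as pairs. The cause of these shifts was not tested. Counting depth limits members under a few CPM, such as Abcb1a, Abcb1b and Abcb9.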
